A study of Mus musculus with 6 samples.

Results

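The genes described here carry glucose through glycolysis to pyruvate and lactate and guard the entry of pyruvate into the mitochondrion. They were chosen by symbol, as 35 genes of glucose uptake, glycolysis, lactate production and transport and pyruvate dehydrogenase control, together with the hypoxia regulator *Hif1a*. The symbols matched 36 of the 25166 genes in the table, because *Aldoa* occurred under a second identifier (ENSMUSG00000114515). Expression was measured by RNA-seq in muscle stem cells (MuSCs), the PAX7-positive stem cells of skeletal muscle, with 3 libraries labelled Sirt6mKO and 3 control libraries (Ctrl). All mice were C57BL/6, and the supplementary legend gives males of 12 weeks of age. In Sirt6mKO mice, Cre recombinase expressed from the *Pax7* locus since development deletes exons 4 to 6 of the floxed *Sirt6* alleles, so the deletion is not restricted to adult MuSCs. The controls are wild type in the labels, whereas the supplementary legend describes them as floxed *Sirt6* mice without Cre. Each library was made from 100 to 200 sorted MuSCs without culture. The labels do not say that the libraries came from separate animals, so that p-values measure the spread between these samples only.

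Glycolysis splits glucose into pyruvate, with phosphofructokinase as its main control point and a later stretch in which each enzyme acts on trioses. Lactate dehydrogenase is a tetramer of A and B subunits, and tetramers rich in A favour the making of lactate from pyruvate, while tetramers rich in B favour the use of lactate. Pyruvate dehydrogenase turns pyruvate into acetyl-CoA for the mitochondrion, and the pyruvate dehydrogenase kinases close this gate by phosphorylating its E1 alpha subunit. Quiescent MuSCs are known for oxidative metabolism and move toward glycolysis when they activate. SIRT6 is known as a deacetylase of histone H3 that represses glycolytic genes in other cells.

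The letters ACGTG are a form of the core that HIF1A binds, and the promoters were searched for them on both strands. RefSeq (GRCm38.p6) lists promoters of 300 bases, 250 before and 50 after a transcription start, for 33 of the 35 genes, with none listed for *Slc2a3* and *Slc2a4*. Of these 33 genes, 19 (57.6%) had the letters in at least 1 promoter, compared with 21.8% of the 27025 genes listed. Counted by promoter, 23 of 52 (44.2%) held a match, compared with 19.6% of all 32851 promoters. The lactate dehydrogenase pair is shown because its members differed in response, and *Pfkp* because it had the lowest adjusted p among the genes that rose. The stretches run 5′ to 3′ on the strand of the gene, up to the start of transcription and without annotated exon bases, and capitals mark ACGTG or its reverse complement CACGT. The E-box CACGTG holds both and is counted on both strands.
Ldha, chr7:46845554-46845803, plus strand: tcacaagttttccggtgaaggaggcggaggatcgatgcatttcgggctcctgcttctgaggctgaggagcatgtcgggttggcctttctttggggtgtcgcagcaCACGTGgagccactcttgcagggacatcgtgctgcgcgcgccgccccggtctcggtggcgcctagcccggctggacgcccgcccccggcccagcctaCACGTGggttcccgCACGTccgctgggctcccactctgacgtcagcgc
Ldhb, chr6:142507958-142508207, minus strand: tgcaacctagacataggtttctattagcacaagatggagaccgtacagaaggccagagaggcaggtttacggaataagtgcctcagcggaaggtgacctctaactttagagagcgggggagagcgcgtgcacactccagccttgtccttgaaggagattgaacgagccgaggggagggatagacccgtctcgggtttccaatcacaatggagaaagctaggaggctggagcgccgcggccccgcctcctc
Pfkp, chr13:6648778-6649021, minus strand: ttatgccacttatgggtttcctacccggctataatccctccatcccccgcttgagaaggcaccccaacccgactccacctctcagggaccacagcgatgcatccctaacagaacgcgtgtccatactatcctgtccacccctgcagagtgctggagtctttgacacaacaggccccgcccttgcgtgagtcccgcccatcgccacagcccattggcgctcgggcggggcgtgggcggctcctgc
The stretch before *Ldha* held 5 matches in 3 places, 2 of which were E-boxes, and it was the 1 of its 2 listed promoters with a match. No match lay in the stretches before *Ldhb* and *Pfkp*, and none in the listed promoters of *Tpi1* and *Pdk4*. None of the 4 genes that changed and had a listed promoter held ACGTG in this window. The form GCGTG was not searched, and it occurs in the stretches printed for *Ldhb* and *Pfkp*. Binding of HIF1A was not tested.

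The values of the table, called signal here, are reads per gene that were divided by a factor per library and rounded. Total signal ran from 2272307 to 2369973 per library, and between 1267027 and 3209958 reads stood behind it, the fewest in control replicate 3, where 1 read was worth a signal of 1.792. *Sirt6* itself stood at 19, 20 and 13 in the Sirt6mKO libraries (replicates 1, 2 and 3, the order used throughout) and at 18, 17 and 20 in Ctrl, with an estimated log2 change of -0.10 (SE 0.29, adjusted p = 0.91 by limma-trend and Benjamini-Hochberg). The floxed exons make up 237 of the 1891 bases of its longest transcript (12.5%) and the table holds no value per exon, so the deletion cannot be checked, and groups are named by their labels. *Pax7* was present in every library (1810 to 2307 in Sirt6mKO and 3150 to 4066 in Ctrl), but lower in Sirt6mKO (log2 fold change -0.84, limma-trend, Benjamini-Hochberg adjusted p = 0.0041). The summed signal of 10 MuSC markers was 11311 to 11773 in Sirt6mKO and 12737 to 14037 in Ctrl. The sum of 16 muscle fiber markers was 3712, 3921 and 2006 in Sirt6mKO and 1423, 1633 and 1583 in Ctrl, and that of 7 immediate early genes was 13961 to 16279 and 8266 to 10277. Fibroblast markers (9 genes) summed to 9480 to 11610 and 6566 to 10226, where *Col3a1*, with 5795 to 8595 over all libraries, made up most of the sum. Of the 8 tested fibroblast markers, 4 were called higher (*Col1a2*, *Col1a1*, *Col6a3* and *Pdgfra*) and 0 lower, with a median log2 fold change of 1.66. Mural markers (5 genes) summed to 3742 to 4968 and 2165 to 3326, almost all of it *Notch3*, and limma-trend called 0 of the 4 tested, with 1 at an unadjusted p under 0.05. Of the 15 tested fiber markers 4 were called higher, as were 5 of the 7 immediate early genes. Among the 10 MuSC markers 1 was called higher (*Cd34*) and 2 lower (*Pax7* and *Chrdl2*). The sums of 6 commitment markers were 144 to 237 and 266 to 423, of 5 erythroid markers 13 to 60 and 23 to 545 and of 4 Schwann cell markers 50 to 107 and 80 to 116. Those of 4 tenocyte markers were 46 to 537 and 34 to 55, where *Fmod* gave 481 of the 537 in Sirt6mKO replicate 2. For 4 endothelial markers they were 373 to 450 and 466 to 571, almost all of it *Tek*, whereas *Pecam1* overlapped with 22, 27 and 24 compared with 11, 4 and 29. Of 6 immune markers, *Ptprc*, *Itgam*, *Adgre1* and *Cd3e* had no row in the table, and the other 2 summed to at most 71.

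Of the 36 rows, 32 reached a mean signal of 5 and were tested among 14227 genes by limma-trend on log2(signal + 1). At a Benjamini-Hochberg (BH) adjusted p of at most 0.05, 4 members were higher in Sirt6mKO (*Slc2a3*, *Pfkp*, *Tpi1* and *Pdk4*) and 1 was lower (*Ldhb*), that is 12.5% and 3.1% of the tested members, compared with 2.64% and 1.88% of all tested genes. *Ldhb* was also the only called member with a fold change of at least 2. Over all tested genes, 1.57% were higher and 1.02% lower at this fold. All Sirt6mKO libraries lay above all controls in 8 members (25%) and below them in 1 (3.1%), where the shares among all tested genes were 11.1% and 10.1%. The median log2 fold change of the tested members was 0.23, with 23 above 0 and 9 below, whereas it was 0.002 over all tested genes. At an unadjusted limma-trend p under 0.05 there were 10 members, 8 of them higher in Sirt6mKO. The share of all tested genes at this threshold was not counted, so this number has no background beside it. The number called higher changed when 1 library was left out, which leaves 2 in its group. It was 0 without Sirt6mKO replicate 1 (limma-trend, with 4 members higher at an unadjusted p under 0.05), 1 without Sirt6mKO replicate 2 and 2 without control replicate 1 or 2, whereas 1 member was lower in each case. Over all tested genes, the higher share was 0.9% and 0.89% without Sirt6mKO replicate 1 and 2, and 3.11% and 1.74% without control replicate 1 and 2. Leaving out 1 library gave log2 fold changes of 0.60 to 0.67 for *Slc2a3*, 0.62 to 0.87 for *Pfkp*, 0.64 to 0.80 for *Tpi1* and 0.45 to 0.62 for *Pdk4*. Each of the 5 called genes was outside the control range in every Sirt6mKO library. As these genes were called from the same values, their separation adds no further support. For 1 gene alone, a two-sided exact permutation test of such a separation gives p = 0.1, below which n = 3 against n = 3 cannot go.

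**Figure D1:**
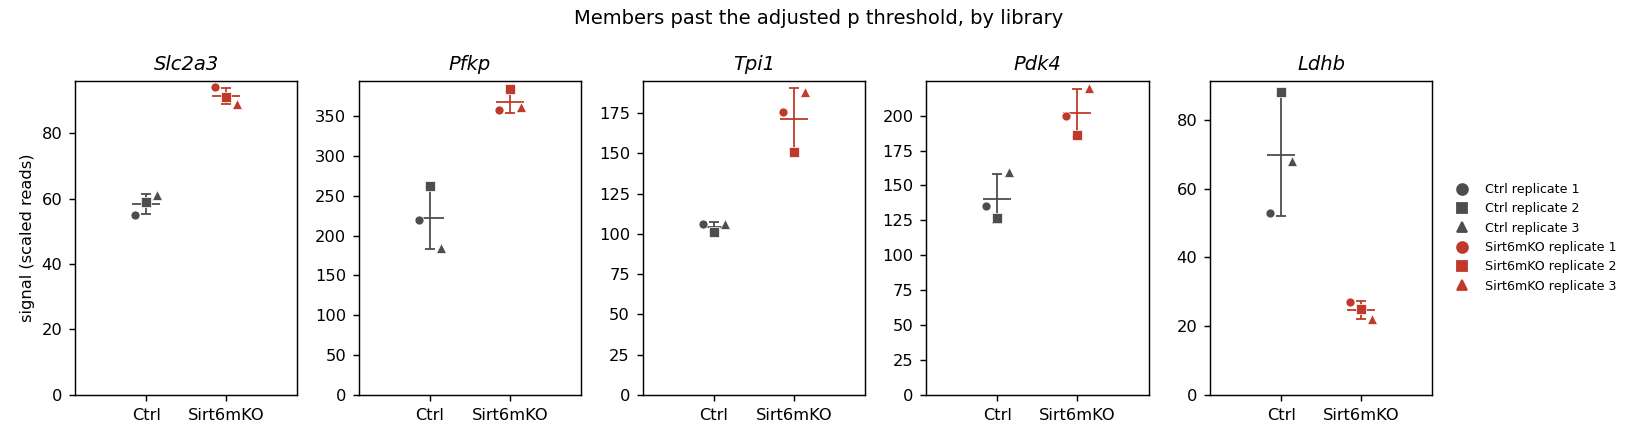
Signal (scaled reads, linear axis from 0) of the 5 members past the adjusted p threshold in each of the 6 libraries, where points are libraries, horizontal lines group means and bars SD. In each panel the Sirt6mKO points lie apart from the control points, above them for *Slc2a3*, *Pfkp*, *Tpi1* and *Pdk4* and below them for *Ldhb*.

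The largest difference among the called members concerned lactate dehydrogenase, whose B gene fell while its A gene did not pass the test. *Ldhb* (ENSMUSG00000030246, chromosome 6, 142490249 to 142507957, minus strand) had a signal of 27, 25 and 22 in Sirt6mKO and of 53, 88 and 68 in Ctrl. All Sirt6mKO libraries were low and close to each other, the controls were spread more widely, and the groups did not overlap. The mean was 24.7 ± 2.5 (SD, n = 3) compared with 69.7 ± 17.6 (SD, n = 3), and the log2 fold change was -1.44 (SE 0.23, limma-trend, BH adjusted p = 0.0041), a 2.71-fold lower level. In bulk RNA, fewer cells that express a gene and less RNA per cell cannot be told apart, and this holds for each result given here. The call held without each library in turn, with adjusted p values up to 0.026.

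*Ldha* (ENSMUSG00000063229, chromosome 7, 46841475 to 46855627, plus strand), which encodes the A subunit, had a signal of 299, 263 and 284 in Sirt6mKO and of 288, 286 and 276 in Ctrl. The groups overlapped and their means were 282.0 ± 18.1 and 283.3 ± 6.4 (SD, n = 3 each). Its log2 fold change was -0.01 with a 95% interval from -0.25 to 0.23 (limma-trend, BH adjusted p = 0.98), which corresponds to ratios from 0.84 to 1.17. Per kb of exon, *Ldhb* held 16.0, 16.7 and 14.0% of the lactate dehydrogenase signal in Sirt6mKO and 28.0, 39.3 and 34.2% in Ctrl. This share does not depend on the scaling between libraries, and every Sirt6mKO library lay below every control. The means were 15.6 ± 1.4% and 33.8 ± 5.7% (SD, n = 3 each), a difference of -18.3 percentage points (two-sided exact permutation p = 0.1). The log2 ratio of *Ldhb* to *Ldha* was -3.42, -3.34 and -3.63 in Sirt6mKO and -2.42, -1.69 and -2.01 in Ctrl, a difference of -1.43 (two-sided exact permutation p = 0.1). As the signal of *Ldha* hardly differed, the share and the ratio restate the difference in *Ldhb* and add no independent support. Of the 75-base windows of the longest *Ldhb* transcript, 16.7% also occurred in a pseudogene, and the difference in share was -15.8 points when only windows found in no other gene set the length, and -14.4 points with the longest transcript as the length.

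The monocarboxylate transporters carry lactate and pyruvate across the plasma membrane together with a proton. *Slc16a1* (MCT1) had a signal of 181, 155 and 172 in Sirt6mKO and of 143, 182 and 149 in Ctrl. These groups overlapped (log2 fold change 0.10, limma-trend, BH adjusted p = 0.76). *Slc16a3* (MCT4), the exporter of strongly glycolytic cells, was near the lower limit with 11, 15 and 6 compared with 5, 9 and 2, and its log2 fold change of 0.97 had an interval from -0.17 to 2.10. MCT1 supplied at least 92.5% of the signal per kb of this pair in every library.

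Glucose enters cells through transporters of the GLUT family. *Slc2a3* (GLUT3, ENSMUSG00000003153, chromosome 6, 122727809 to 122801640, minus strand), a transporter with a high affinity for glucose, had a signal of 94, 91 and 89 in Sirt6mKO and of 55, 59 and 61 in Ctrl. Both groups were narrow and did not overlap. The mean was 91.3 ± 2.5 compared with 58.3 ± 3.1 (SD, n = 3 each), giving a log2 fold change of 0.64 (SE 0.15, limma-trend, BH adjusted p = 0.035), or 1.56-fold. Leaving out 1 library kept the call only without control replicate 3, and in the other 5 cases the adjusted p was 0.076 to 0.16 with a log2 fold change no lower than 0.60. *Slc2a1* (GLUT1), the widely expressed transporter, had 56, 90 and 55 in Sirt6mKO and 38, 67 and 27 in Ctrl. In both groups replicate 2 was high, and the groups overlapped (log2 fold change 0.66, SE 0.30, limma-trend, BH adjusted p = 0.28). *Slc2a4*, the insulin-responsive GLUT4 of muscle fibers, was at 5, 6 and 5 compared with 5, 4 and 4, under the mean needed for a test. GLUT3 held 31.4 to 42.7% of the signal per kb of the 3 transporters in Sirt6mKO and 28.7 to 48.8% in Ctrl, and GLUT1 held 52.6 to 64.2% and 44.6 to 67.3%, so that neither share separated the groups.

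**Figure D2:**
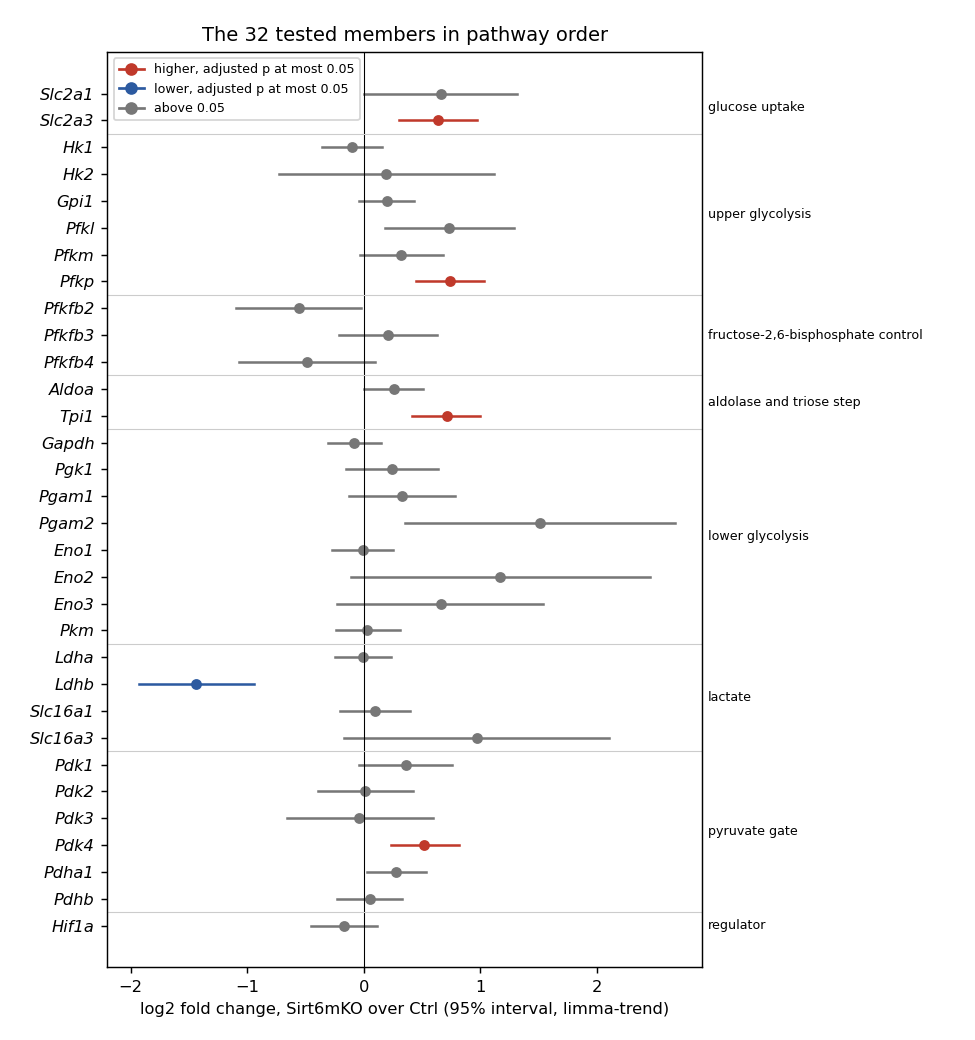
Log2 fold change (Sirt6mKO over Ctrl, n = 3 libraries each, limma-trend) of the 32 tested members in the order of the pathway, where points are estimates and lines 95% intervals. *Slc2a3*, *Pfkp*, *Tpi1* and *Pdk4* are coloured as higher and *Ldhb* as lower, and the interval of *Ldha* spans 0.

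Hexokinase traps glucose as glucose-6-phosphate, and phosphofructokinase commits the sugar to glycolysis. *Pfkp* (ENSMUSG00000021196, chromosome 13, 6579768 to 6648777, minus strand), the platelet-type phosphofructokinase, had a signal of 358, 384 and 362 in Sirt6mKO and of 219, 262 and 185 in Ctrl. All Sirt6mKO libraries were above the highest control, replicate 2. The mean was 368.0 ± 14.0 compared with 222.0 ± 38.6 (SD, n = 3 each), and the estimated log2 fold change was 0.74 (SE 0.14, limma-trend, BH adjusted p = 0.0082), or 1.67-fold. The adjusted p was 0.053 without Sirt6mKO replicate 1 and 0.057 without Sirt6mKO replicate 2. Exons of *Pitrm1*, which lies on the other strand, cover 5.6% of the exon bases of *Pfkp*.

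Both other phosphofructokinases had estimates above 0 without passing the test. *Pfkl*, the liver type, had 74, 63 and 42 in Sirt6mKO and 31, 46 and 29 in Ctrl, where Sirt6mKO replicate 3 fell inside the control range (log2 fold change 0.73, SE 0.26, limma-trend, BH adjusted p = 0.14). *Pfkm*, the muscle type, had 136, 133 and 127 compared with 96, 91 and 133, so control replicate 3 reached the Sirt6mKO level (log2 fold change 0.32, limma-trend, BH adjusted p = 0.32). Per kb, *Pfkm* was the most abundant of the 3 in every library and *Pfkl* the least. The share of *Pfkp* was 36.2 ± 2.0% in Sirt6mKO and 31.0 ± 6.5% in Ctrl (SD, n = 3 each), a difference of 5.2 points that did not separate the groups (two-sided exact permutation p = 0.2).

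*Hk1*, the housekeeping hexokinase, provided 95.3 to 98.6% of the hexokinase signal per kb. It stood at 408, 462 and 429 in Sirt6mKO and at 509, 483 and 402 in Ctrl, and the groups overlapped (log2 fold change -0.10, limma-trend, BH adjusted p = 0.74). *Hk2*, the inducible hexokinase of muscle and growing cells, did not exceed 14 in any library. *Gpi1*, which turns glucose-6-phosphate into fructose-6-phosphate, had 482, 456 and 495 compared with 408, 454 and 391. The groups were separate by a signal of 2 only, and the log2 fold change was 0.20 (limma-trend, BH adjusted p = 0.38).

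The PFKFB enzymes make and degrade fructose-2,6-bisphosphate, the strongest activator of phosphofructokinase. No member of this family passed the test. *Pfkfb3*, the isozyme with the highest kinase activity and the most abundant per kb in most libraries, had 94, 102 and 124 in Sirt6mKO and 73, 87 and 120 in Ctrl (log2 fold change 0.21, limma-trend, BH adjusted p = 0.63). *Pfkfb2* was at 26, 24 and 43 compared with 47, 46 and 41, so Sirt6mKO replicate 3 alone reached the controls (log2 fold change -0.56, SE 0.25, limma-trend, BH adjusted p = 0.26). Of its windows, 25.3% also occurred in another gene. *Pfkfb4* was at 39, 38 and 20 compared with 49, 44 and 39 (log2 fold change -0.49, limma-trend, BH adjusted p = 0.38), and *Pfkfb1* did not exceed 5.

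Aldolase cuts the phosphorylated sugar into a pair of trioses, which triose phosphate isomerase interconverts. *Tpi1* (ENSMUSG00000023456, chromosome 6, 124810586 to 124814296, minus strand) had a signal of 176, 151 and 188 in Sirt6mKO and of 106, 101 and 106 in Ctrl. Every Sirt6mKO library was above the narrow control range. The mean was 171.7 ± 18.9 compared with 104.3 ± 2.9 (SD, n = 3 each), and the estimated log2 fold change was 0.71 (SE 0.14, limma-trend, BH adjusted p = 0.011), or 1.63-fold. The adjusted p was 0.078 without Sirt6mKO replicate 1 and 0.056 without Sirt6mKO replicate 3. *Tpi1* shared 2.5% of its windows with 2 pseudogenes, and exons of *Spsb2* on the other strand cover 1.2% of its exon bases.

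*Aldoa*, the muscle aldolase, was the most abundant member per kb in Ctrl (381 per kb) and gave at least 99.4% of the aldolase signal per kb. It had 1462, 1178 and 1350 in Sirt6mKO and 1033, 1227 and 1070 in Ctrl. Sirt6mKO replicate 2 fell inside the control range (log2 fold change 0.26, SE 0.12, limma-trend, BH adjusted p = 0.27). The second *Aldoa* row was at 1, 2 and 2 compared with 5, 5 and 5, and *Aldoc* at 4, 4 and 1 compared with 7, 1 and 2. Neither reached the mean needed for a test.

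From glyceraldehyde-3-phosphate to pyruvate, 0 of 8 tested members passed limma-trend with BH adjustment, and 1 had an unadjusted p under 0.05 (*Pgam2*). *Gapdh*, the dehydrogenase that opens this stretch, had 721, 687 and 699 in Sirt6mKO and 695, 818 and 724 in Ctrl (log2 fold change -0.08, interval -0.31 to 0.15). *Pgk1*, which makes the first ATP of this stretch, had 120, 95 and 147 compared with 86, 100 and 117 (log2 fold change 0.24, interval -0.15 to 0.64). *Pgam1*, the widely expressed phosphoglycerate mutase, had 75, 49 and 77 compared with 47, 53 and 57 (log2 fold change 0.33, interval -0.13 to 0.78). In these genes the groups overlapped.

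*Eno1*, the widely expressed enolase, had 374, 308 and 398 in Sirt6mKO and 368, 346 and 367 in Ctrl, and the estimated log2 fold change was -0.01 and an interval from -0.27 to 0.25. *Pkm*, the pyruvate kinase of muscle and most other tissues, had 1480, 1255 and 1371 compared with 1286, 1578 and 1176, and the estimated log2 fold change was 0.03 and an interval from -0.24 to 0.31. The direction of both turned when single libraries were left out. The table does not separate the M1 and M2 isoforms of *Pkm*. *Eno2*, the neuronal enolase, did not exceed 11. Reads of several of these genes can match copies elsewhere. The windows that also occurred in other genes were 67.5% of those of *Pgk1*, 65.4% of *Eno1*, 40.6% of *Pgam1*, 22.8% of *Gapdh* (with 107 pseudogenes) and 19.6% of *Pkm*. Per the methods, reads that matched several regions were not counted, so these levels may be too low and are uncertain.

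**Figure D3:**
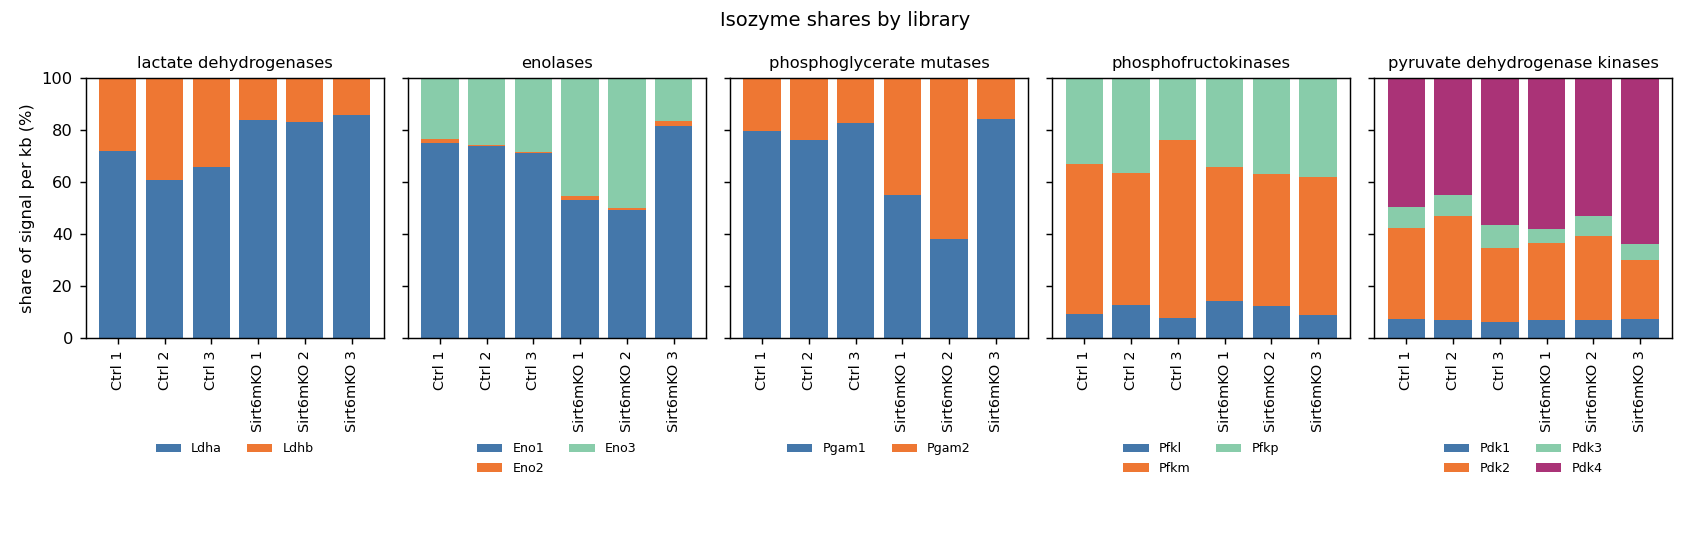
Share of each isozyme in the signal per kb of exon of its enzyme (percent, stacked to 100) in each of the 6 libraries, for 5 enzymes. The *Ldhb* part is smaller in all 3 Sirt6mKO libraries, whereas the *Eno3* and *Pgam2* parts are larger in Sirt6mKO replicates 1 and 2 and not in replicate 3.

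The muscle isozymes of enolase and phosphoglycerate mutase divided the Sirt6mKO libraries, a pattern that was chosen after the values were seen. *Eno3*, the enolase of mature muscle fibers, had a signal of 103, 101 and 26 in Sirt6mKO and of 37, 39 and 47 in Ctrl. Sirt6mKO replicates 1 and 2 were above and replicate 3 below all controls, and the log2 fold change of 0.66 did not pass the test (SE 0.41, limma-trend, BH adjusted p = 0.44). *Pgam2*, the muscle phosphoglycerate mutase, had 26, 34 and 6 in Sirt6mKO and 5, 7 and 5 in Ctrl. Sirt6mKO replicate 3 again stood with the controls (log2 fold change 1.51, SE 0.54, limma-trend, BH adjusted p = 0.15). Without Sirt6mKO replicate 3, *Eno3* had a log2 fold change of 1.30 (limma-trend, BH adjusted p = 0.0067) and *Pgam2* of 2.22 (limma-trend, BH adjusted p = 0.013), an omission chosen after the values were seen. Without Sirt6mKO replicate 1 or 2, *Eno3* was at 0.33 and 0.34 (limma-trend, BH adjusted p = 0.82 and 0.80) and *Pgam2* at 1.25 and 1.06 (limma-trend, BH adjusted p = 0.44 and 0.47). *Eno3* made up 45.2, 50 and 16.5% of the enolase signal per kb in Sirt6mKO and 23.4, 25.8 and 28.2% in Ctrl. *Pgam2* made up 45.0, 62.1 and 15.5% of the mutase signal and 20.1, 23.8 and 17.1%, respectively. These shares depend on the length used. *Eno1* has an exon union of 5379 bases but a longest transcript of 2027, compared with 1739 and 1564 for *Eno3*. With the longest transcript as the length, the *Eno3* share would be lower in every library. The shared windows of *Eno1* (65.4%) and *Pgam1* (40.6%) may also raise the shares of *Eno3* and *Pgam2*. The muscle fiber marker *Acta1*, skeletal alpha-actin, had 548, 656 and 143 in Sirt6mKO and 118, 131 and 93 in Ctrl, so that replicate 3 was lower than replicates 1 and 2 but above every control. *Ckm*, the muscle creatine kinase, had 165, 186 and 27 compared with 31, 31 and 23, with replicate 3 inside the control range. Other fiber markers were high in all 3 Sirt6mKO libraries, such as *Ttn* (titin) with 819, 917 and 657 compared with 451, 321 and 518. Over the list, 6 of 15 tested fiber markers had every Sirt6mKO library above every control and 9 overlapped. The part of fiber RNA in the signal of *Eno3* and *Pgam2* was not tested.

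**Figure D4:**
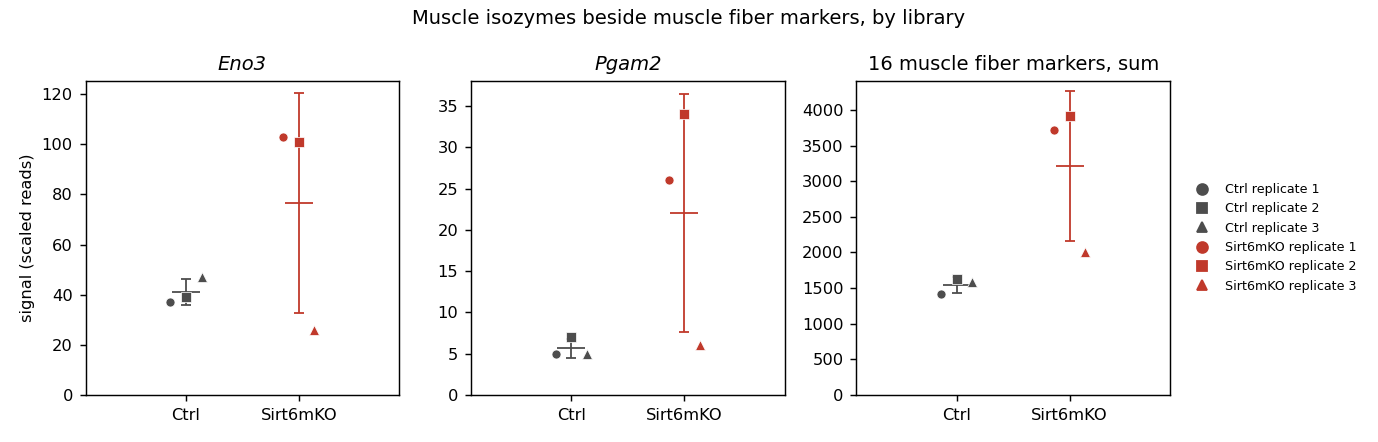
Signal (scaled reads, linear axes from 0) of *Eno3* and *Pgam2* and the summed signal of 16 muscle fiber markers in each of the 6 libraries, where points are libraries, horizontal lines group means and bars SD. In all 3 panels Sirt6mKO replicates 1 and 2 stand above the controls, and replicate 3 lies much nearer to them, below them for *Eno3*.

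At the pyruvate gate, 1 of 6 members passed the test. *Pdk4* (ENSMUSG00000019577, chromosome 6, 5483351 to 5496309, minus strand), the kinase induced by fasting and fatty acids, had a signal of 200, 186 and 220 in Sirt6mKO and of 135, 127 and 160 in Ctrl. Each Sirt6mKO library was above the highest control, replicate 3. The mean was 202.0 ± 17.1 compared with 140.7 ± 17.2 (SD, n = 3 each), and the estimated log2 fold change was 0.52 (SE 0.14, limma-trend, BH adjusted p = 0.049), or 1.44-fold. This call is at the threshold and held in 6 of 18 alternatives. Leaving out 1 library kept it only without control replicate 3, and in the other 5 cases the adjusted p was 0.11 to 0.18. *Pdk4* was the most abundant of the 4 kinases per kb, with 58.4 ± 5.3% of their signal in Sirt6mKO and 50.4 ± 5.8% in Ctrl (SD, n = 3 each, two-sided exact permutation p = 0.2).

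*Pdk1*, the kinase induced by hypoxia, had 52, 54 and 55 in Sirt6mKO and 43, 44 and 38 in Ctrl. Its groups did not overlap, but the difference did not pass the test (log2 fold change 0.36, SE 0.18, limma-trend, BH adjusted p = 0.34). *Pdk2*, the widely expressed kinase, had 92, 102 and 70 compared with 86, 102 and 73, and *Pdk3* had 14, 19 and 16 compared with 16, 16 and 18. Their log2 fold changes were 0.01 and -0.04, and the direction of both turned under some alternatives. *Pdk3* was the only kinase whose share of the family separated the groups, at 6.5 ± 0.9% compared with 8.2 ± 0.5% (SD, n = 3 each, two-sided exact permutation p = 0.1). Its own signal overlapped between the groups and rested on 10 to 25 reads per library, so this share does not show a change of *Pdk3* itself.

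The enzyme that the kinases act on is pyruvate dehydrogenase, whose E1 subunits are encoded by *Pdha1* and *Pdhb*. *Pdha1* had 522, 432 and 492 in Sirt6mKO and 371, 422 and 393 in Ctrl. The lowest Sirt6mKO library, replicate 2, was just above the highest control (log2 fold change 0.28, SE 0.11, limma-trend, BH adjusted p = 0.21). *Pdhb* had 129, 128 and 126 compared with 121, 125 and 124, a separation by a signal of 1 with a log2 fold change of 0.05 (interval -0.23 to 0.33). Part of the *Pdha1* signal is uncertain, as 13.9% of its windows occur in another gene and exons of *Map3k15* on the other strand cover 16.1% of its exon bases. *Hif1a*, the oxygen-controlled subunit of HIF1, which is regulated mainly at the protein level, had 319, 345 and 297 compared with 358, 420 and 310. These groups overlapped (log2 fold change -0.17, limma-trend, BH adjusted p = 0.55).

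Of 90 further genes of the pathway and its branches, 83 were in the table and 74 were tested. In these, 5 were higher (6.8%) and 1 lower (1.4%), with a median log2 fold change of 0.06. None passed among 9 tested further glycolytic isozymes, 3 genes of the gluconeogenic bypass and 13 further genes of the pyruvate gate, where limma-trend gave 2, 0 and 2 genes at an unadjusted p under 0.05. Among 8 genes of the pentose phosphate branch, *Tkt*, the transketolase that returns pentoses to glycolysis as triose and hexose phosphates, rose with a signal of 96, 88 and 85 in Sirt6mKO and of 42, 51 and 38 in Ctrl. These groups were far apart (log2 fold change 1.03, SE 0.18, limma-trend, BH adjusted p = 0.0061, and 0.055 without Sirt6mKO replicate 1). *Pygb*, the brain-type glycogen phosphorylase and 1 of 16 glycogen genes, had 141, 175 and 124 compared with 91, 99 and 93 (log2 fold change 0.62, limma-trend, BH adjusted p = 0.041). *Gfpt2*, which diverts fructose-6-phosphate to hexosamines, had 147, 166 and 148 compared with 127, 87 and 79 (log2 fold change 0.68, limma-trend, BH adjusted p = 0.050). Both had separate groups, and both calls were lost in 5 of 6 cases when 1 library was left out, with adjusted p values up to 0.20.

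The hypoxia lists held 8 tested regulators and 12 tested targets outside glycolysis. *Epas1*, which encodes HIF2A, had a signal of 93, 139 and 54 in Sirt6mKO and of 57, 17 and 11 in Ctrl. The groups overlapped through Sirt6mKO replicate 3 and control replicate 1, and the log2 fold change of 1.95 passed the test (SE 0.48, limma-trend, BH adjusted p = 0.039) but not with a robust spread estimate (adjusted p = 0.22). *Ndrg1*, a stress-induced gene with a HIF-responsive promoter, had 567, 741 and 842 compared with 518, 402 and 432 (log2 fold change 0.66, limma-trend, BH adjusted p = 0.027). *Car12*, a carbonic anhydrase of the cell surface, went the other way with 52, 50 and 106 compared with 143, 162 and 117 (log2 fold change -1.09, limma-trend, BH adjusted p = 0.030). For *Epas1*, *Ndrg1* and *Car12*, the call was kept in 2 of 6 cases when 1 library was left out, with adjusted p values up to 0.21, 0.13 and 0.18. The sums of muscle fiber and immediate early markers given above were higher in each Sirt6mKO library than in any control. So was *Notch3* of the mural list, but it was not called (limma-trend, BH adjusted p = 0.056), and the other 3 tested mural markers overlapped. Of 8 tested fibroblast markers, 4 were called higher. The part of these marker differences in the results on the hypoxia genes and on the members was not tested.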

How the data were processed

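RNA-seq of sorted MuSCs (3 Sirt6mKO and 3 Ctrl libraries, 1 x 75 bases, labels) was analysed from the table of 25166 genes. Per the labels, the authors' processing names Trimmomatic 0.39, STAR 2.7.10a, featureCounts 2.0.2 and DESeq2 1.30.1 with mm10, whereas the methods name Reaper and other versions. Whether strand was used in counting is not given in the sources used here. The deposited signal has no stated unit: it is reads divided by a size factor per library (0.558 to 1.372, recovered here from gaps in the values) and rounded, so no count test was used.

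Log2(signal + 1) of genes whose mean signal reached 5 was fitted with limma-trend (limma 3.58.1, R 4.3.3), tested on simulated data first, with Benjamini-Hochberg adjustment over all 14227 tested genes. Fold changes are on this scale and understate those of low genes. Tables and plots were made in Python 3.11.15 (pandas 2.3.3, matplotlib 3.10.9). Levels per kb used exon union lengths of GENCODE vM21 (GRCm38), in which all 36 rows had the same coordinates. The members and lists were chosen with earlier results of these data known. Named were called members, members with separate groups, the most abundant isozyme per step, the study's glycolytic genes and called genes of the other lists. Alternatives changed scaling, pseudocount, filter, spread estimate, model, threshold or length, or left out each library. A length from unshared windows was added after seeing the data. Totals of 1267027 to 3209958 reads limit low genes most.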

Additional observations from a re-analysis of the deposited data

How the results depend on the processing

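The lower call of *Ldhb* held in all 17 alternatives that could test it (log2 fold change -1.62 to -1.25). It could not be tested at a mean signal of at least 50, where 0 members were lower. The count of 4 higher members was 3 or 4 under other scalings, pseudocounts, a mean of at least 1 or 50, robust empirical Bayes and limma voom on recovered reads. It was 2 without a filter, where 1.06% of all genes were higher, and 0 at a fold of at least 2, where 1.57% were. At an adjusted p of at most 0.01 it was 1, and the share of all genes at this threshold was not counted. Leaving out 1 library gave 0 to 4 higher members and 1 lower member in each case, with 0 higher without Sirt6mKO replicate 1, 1 without Sirt6mKO replicate 2 and 2 without control replicate 1 or 2. Over all genes, the higher calls went from 2.64% to 0.9% and 0.89% without Sirt6mKO replicate 1 and 2. No scaling moved the median of all genes by over 0.1.

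Estimates near 0 turned direction. Leaving out 1 library gave -0.19 to 0.47 for *Hk2* (below 0 without control replicate 1), -0.09 to 0.10 for *Eno1*, -0.06 to 0.15 for *Pkm*, -0.05 to 0.04 for *Ldha*, -0.11 to 0.17 for *Pdk2* and -0.14 to 0.06 for *Pdk3*. *Pdk2* was also -0.01 under upper quartile scaling, -0.00 under total signal and -0.03 with voom. The difference in *Ldhb* share was -14.4 points with the longest transcript as the length, -15.8 with unshared windows and -21.2 to -15.5 without 1 library, and the *Ldhb* to *Ldha* difference -1.62 to -1.25 without 1 library. The replicate block left 4 members higher and 1 lower, with 3.38% of all tested genes higher instead of 2.64%. Same-numbered libraries deviated together with r = 0.023, 0.066 and 0.188, and different-numbered libraries with r from -0.129 to 0.073. Sirt6mKO replicate 1 correlated best with control replicate 2 (r = 0.073). These values do not settle whether the numbers pair the libraries, and the main fit did not pair them. Causes were not tested. Low genes are limited by depth, above all in control replicate 3.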
